A study of Mus musculus with 6 samples.

Results

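S100 genes encode small EF-hand calcium-binding proteins, and 10 of them (*S100a1*, *S100a4*, *S100a6*, *S100a8*, *S100a9*, *S100a10*, *S100a11*, *S100a13*, *S100a14* and *S100a16*) were followed here in mouse liver. They were taken by gene symbol from the 25403 genes listed. Bulk RNA-seq compared 3 livers labelled WT with 3 livers labelled *Themis*-KO, to ask how loss of THEMIS, a T cell receptor signalling protein, alters liver gene expression in metabolic dysfunction–associated steatohepatitis (MASH). The animals were male. Those labelled WT were wild-type mice of the C57BL6/J strain, and those labelled *Themis*-KO are given by genotype, without a strain. Both groups received the AMYLIN liver NASH diet, with 40 kcal% of fat, 20 kcal% of fructose and 2% cholesterol, from an age of 10 to 12 weeks for 3 months. The knockout was of the whole body, so T cells, where *Themis* is normally expressed, carried it as well. The paper also reports that *Themis* is induced in hepatocytes in MASH. No liver on a chow diet was among the 6.

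Most S100 proteins form dimers that change shape on binding calcium and then bind partner proteins. S100A10 is the exception, being locked in a calcium-bound-like form, and it pairs with annexin A2 at the cell membrane, where the complex binds plasminogen and its activators. S100A8 and S100A9 form calprotectin, an abundant protein of neutrophils and monocytes that signals through TLR4 and RAGE. S100A4, S100A6 and S100A11 are typical of fibroblasts, immune cells and epithelia, whereas *S100a1* is best known from muscle.

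The libraries held 20679642 to 25649767 counts. *Themis*, the targeted gene, had 8.07, 25.6 and 12.0 CPM (TMM-normalized counts per 1000000 counts) in the livers labelled WT and 8.63, 7.74 and 9.97 CPM in the livers labelled *Themis*-KO. WT replicate 1 lay within the *Themis*-KO range, and the difference did not pass the test (log2 fold change −0.79, SE 0.38, edgeR adjusted p = 0.199), so these counts did not separate the labels. *Gm28438*, a gene that shares its sequence with the mitochondrial genome, took 96.6% and 96.8% of the summed counts of *Gm28438* and *mt-Nd3* in WT replicates 1 and 2, and 2.20% to 3.26% in WT replicate 3 and the 3 *Themis*-KO livers. WT replicates 1 and 2 therefore stood apart from the other 4 livers, and in that split the mitochondrial type and the genotype label largely cannot be told apart. The livers held hepatocyte RNA at a high level, with 12 hepatocyte marker genes summing to 51121 CPM or more in each liver.

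All members lie on chromosome 3 (GRCm38, GENCODE vM21, protein coding). *S100a1* (chr3:90511034-90514392, minus strand) and *S100a13* (chr3:90514435-90524581, plus strand) sit head to head at one end of the cluster. *S100a14*, *S100a16*, *S100a4* (chr3:90603771-90606045), *S100a6* (chr3:90612882-90624181) and *S100a8* follow on the plus strand, and *S100a9* (chr3:90692632-90695721) on the minus strand. *S100a11* (chr3:93520488-93526287) and *S100a10* (chr3:93555080-93564643) lie apart, 3009462 and 3044083 bases from the start of the cluster by RefSeq. Of the 584 exonic bases of *S100a4*, 302 are shared with *Gm42674* on the same strand in that annotation, so reads there could belong to either. *Gm42674* is not among the genes listed, so its counts could not be looked at. *S100a1* and *S100a13* overlap at their ends in RefSeq, and whether the counting used strand is not given in the sources used here.

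Promoter windows of 300 bases, 250 before and 50 after the gene start, were found in RefSeq (GRCm38.p6) for 8 of the 10 genes, with *S100a10* and *S100a14* having no entry. The windows of 3 genes that passed the test below are shown, with capitals marking an AP-1 motif (TGACTCA or TGAGTCA, both strands) or a TATA motif (TATAAA, gene strand). The AP-1 motif was in 5.2% of 32851 such windows and the TATA motif in 8.32%.
S100a11 (chr3:93520246-93520545, plus strand): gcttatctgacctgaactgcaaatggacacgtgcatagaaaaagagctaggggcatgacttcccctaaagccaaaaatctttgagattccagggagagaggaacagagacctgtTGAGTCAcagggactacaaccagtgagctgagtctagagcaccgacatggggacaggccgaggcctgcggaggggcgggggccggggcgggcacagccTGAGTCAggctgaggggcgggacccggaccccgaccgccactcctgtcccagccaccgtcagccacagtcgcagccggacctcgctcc
S100a4 (chr3:90603520-90603819, plus strand): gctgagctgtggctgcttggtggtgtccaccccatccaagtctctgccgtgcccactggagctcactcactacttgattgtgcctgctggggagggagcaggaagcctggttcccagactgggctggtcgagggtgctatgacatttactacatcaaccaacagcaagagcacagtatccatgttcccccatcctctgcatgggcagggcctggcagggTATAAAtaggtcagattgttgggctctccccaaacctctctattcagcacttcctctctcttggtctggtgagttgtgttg
S100a6 (chr3:90612644-90612943, plus strand): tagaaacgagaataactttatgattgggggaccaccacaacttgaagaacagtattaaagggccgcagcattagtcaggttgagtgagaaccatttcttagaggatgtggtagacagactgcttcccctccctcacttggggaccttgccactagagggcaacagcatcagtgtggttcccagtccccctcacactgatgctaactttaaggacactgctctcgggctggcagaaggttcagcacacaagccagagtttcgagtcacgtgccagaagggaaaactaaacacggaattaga
The *S100a11* window held 2 AP-1 motifs, starting at −136 and −38 from the gene start, and its GC content was 61.7% against a median of 52.7% over all windows. That was not particular to it, as *S100a1* had 61% and *S100a13* 59.3%. Among the genes that passed, *S100a4* had 55.3% and *S100a6* 49.3%. The *S100a4* window held a TATA motif at −31, and that of *S100a6* held none of the motifs searched. A motif for C/EBP (TTGCNNAA or TTNNGCAA), was in 10.8% of windows and, among the members, in that of *S100a9*. The windows of *S100a8* and *S100a9* each held a TATA motif, whereas those of *S100a1*, *S100a13* and *S100a16* held none of the 3 motifs. The windows of *S100a1* and *S100a13* share 204 bases. These matches describe letters only.

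Among the S100 genes, *S100a10*, *S100a11*, *S100a4* and *S100a6* were higher in the livers labelled *Themis*-KO, by 1.88-fold to 3.14-fold. *S100a8* and *S100a9* had positive fold changes in which 1 *Themis*-KO liver stayed at the WT level. *S100a1*, *S100a13* and *S100a16* had fold changes near 1. Of the 9 members tested, 4 passed the test as higher and 0 as lower, beside 4.97% of the 14496 genes tested that were higher and 4.14% that were lower. At an unadjusted p under 0.05, 6 members were higher and 0 lower in edgeR, beside 16.8% of all genes higher. DESeq2 called the same number, 4 higher and 0 lower, beside 8.02% of all genes higher. Scaled by library totals alone, 4 members were called higher, beside 10% of all genes (1449 genes higher and 387 lower, against 721 and 600 with TMM). With a fold of at least 2, 3 members were called higher, beside 1.86% of all genes. In 5 members every *Themis*-KO liver lay above every WT liver, and in 0 every *Themis*-KO liver lay below, against 17.7% and 16.9% of all genes tested. The median log2 fold change was 1.13 over the 9 members and 0.0095 over all genes tested. *S100a14* was too low to test, with 0, 1 and 1 counts in WT and 5, 1 and 0 counts in *Themis*-KO livers.

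**Figure D1:**
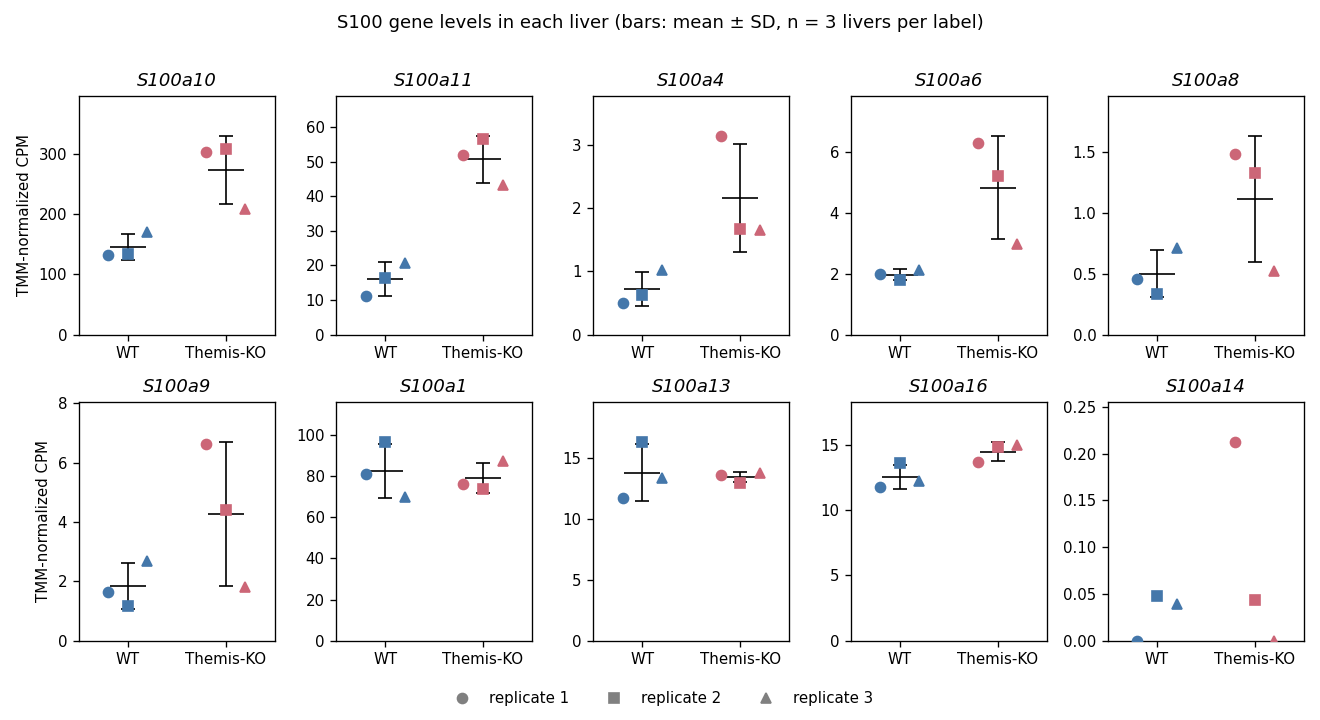
TMM-normalized CPM (vertical axis, from 0) of the 10 S100 genes in each liver, with WT in blue, *Themis*-KO in red, 1 marker shape per replicate number, and mean ± SD of the 3 livers as black bars (none for *S100a14*, which had 5 counts or fewer). In the upper row *Themis*-KO replicate 3 is the lowest *Themis*-KO liver, and for *S100a8* and *S100a9* it falls within the WT range.

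*S100a10*, the annexin A2 partner, had the highest CPM of the members. Its level was 132, 134 and 171 CPM in the WT livers and 303, 309 and 209 CPM in the *Themis*-KO livers. Every *Themis*-KO liver was above every WT liver, with *Themis*-KO replicate 3 the nearest to WT. The group means were 145 ± 21.7 CPM and 274 ± 56.4 CPM (SD, n = 3 each), a 1.88-fold difference (log2 fold change 0.91, SE 0.17, 95% interval 0.51 to 1.31, edgeR adjusted p = 0.0294). In bulk liver, a change in the number of cells of a type and a change in RNA per cell cannot be told apart, here and for every gene below.

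*S100a11*, which binds annexin A1 and is found in many epithelia, had the largest fold change of the 9 members tested. It reached 11.1, 16.3 and 20.8 CPM in WT and 51.9, 56.6 and 43.3 CPM in *Themis*-KO livers. The groups did not overlap, and the 3 *Themis*-KO livers were close to each other. Mean levels were 16.1 ± 4.83 and 50.6 ± 6.76 CPM, a 3.14-fold difference (log2 fold change 1.65, SE 0.22, 95% interval 1.15 to 2.15, edgeR adjusted p = 0.0123). *S100a11* and *S100a10* are neighbours on the chromosome, and the intervals of their fold changes overlapped.

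*S100a4*, a protein of fibroblasts and leukocytes that binds non-muscle myosin, was scarce. The WT livers had 11, 13 and 26 counts and the *Themis*-KO livers 74, 39 and 35 counts, or 0.505, 0.624 and 1.03 CPM against 3.14, 1.68 and 1.65 CPM. *Themis*-KO replicate 1 was the highest, and the groups did not overlap. The difference was 2.96-fold (log2 fold change 1.57, SE 0.38, 95% interval 0.68 to 2.46, edgeR adjusted p = 0.0459).

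*S100a6*, or calcyclin, which binds CACYBP, was at 1.97, 1.78 and 2.13 CPM in WT and 6.29, 5.20 and 2.98 CPM in *Themis*-KO livers, from 37 to 148 counts. The WT livers were close together and the *Themis*-KO livers were spread, without overlap. The difference was 2.46-fold (log2 fold change 1.30, SE 0.29, 95% interval 0.64 to 1.96, edgeR adjusted p = 0.0384).

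*S100a8* and *S100a9*, the calprotectin genes, did not pass the test. *S100a9* was at 1.65, 1.15 and 2.68 CPM in WT and 6.63, 4.39 and 1.79 CPM in *Themis*-KO livers (log2 fold change 1.21, SE 0.48, edgeR adjusted p = 0.139). *S100a8* was at 0.459, 0.336 and 0.710 CPM in WT and 1.49, 1.33 and 0.520 CPM in *Themis*-KO livers (log2 fold change 1.13, SE 0.46, edgeR adjusted p = 0.147). For both genes *Themis*-KO replicates 1 and 2 were above all WT livers, whereas *Themis*-KO replicate 3 was below WT replicate 3. Without *Themis*-KO replicate 3 both passed, *S100a8* at a log2 fold change of 1.44 (edgeR adjusted p = 0.0245) and *S100a9* at 1.55 (0.0151). In that fit 15% of all genes were called higher, beside 4.97% with every liver included, so passing there was not particular to these genes. The liver left out was also the *Themis*-KO liver at the WT level, so these calls add no separate evidence. The *S100a8* counts were 7 to 35 per liver, so its level was poorly resolved.

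The ratio of the calprotectin genes varied less between livers than their levels did. *S100a8* amounted to 0.278, 0.292 and 0.265 of *S100a9* in WT and 0.224, 0.304 and 0.289 in *Themis*-KO livers. The log2 ratio differed by −0.040 on average (*Themis*-KO minus WT), with p = 0.9 by exact permutation (two-sided, and 0.9 after Benjamini-Hochberg adjustment over the 2 ratios tested), and without *Themis*-KO replicate 1 the difference was 0.094.

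Neutrophil markers were low and did not all follow the order of these genes. Of 13 neutrophil markers listed, 3 could be tested and 0 passed in edgeR. At an unadjusted p under 0.05 in edgeR there were 3, beside 16.8% of all genes higher. DESeq2 called 1 higher, beside 8.02% of all genes. The summed level of the 13, most of it from *Csf3r*, was 5.69 to 8.44 CPM in WT and 19.5, 14.9 and 7.75 CPM in *Themis*-KO livers, so *Themis*-KO replicate 3 again lay within the WT range. *Csf3r*, the G-CSF receptor, ran at 3.81, 3.74 and 5.60 CPM in WT and 12.7, 8.82 and 4.53 CPM in *Themis*-KO livers (log2 fold change 0.98, edgeR adjusted p = 0.113, DESeq2 adjusted p = 0.0378). *Cxcr2* had 14, 9 and 23 counts in WT and 52, 33 and 17 in *Themis*-KO livers. *Mmp8* had 5, 0 and 8 against 23, 27 and 5, and *Cd177* 3, 6 and 5 against 23, 19 and 4. In these 3 genes *Themis*-KO replicate 3 lay within the WT range and the other *Themis*-KO livers above it. *Elane*, neutrophil elastase, differed from that order, with 3, 10 and 7 counts in WT and 0, 0 and 5 in *Themis*-KO livers. So did *Ngp*, a granule protein, with 0, 7 and 3 against 3, 2 and 11. In *Mmp9* every *Themis*-KO liver lay above every WT liver, at 0.803 to 1.49 CPM against 0.459 to 0.671 CPM (edgeR adjusted p = 0.0646). Without *Themis*-KO replicate 3, 5 neutrophil markers passed as higher in edgeR, beside 15% of all genes. With all 6 livers only 3 were tested, so some of the 5 entered the test only in that fit. The liver left out there was the one at the WT level, so this count adds no separate evidence. *Ltf*, *Mpo* and *Stfa2l1*, which mark neutrophil granules and maturing neutrophils, had 3 counts or fewer in every liver, and *Ly6g* was not analysed here. The part of neutrophil RNA in the *S100a8* and *S100a9* values was not tested.

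*S100a1*, *S100a13* and *S100a16* showed no difference that passed the test. *S100a1*, next to *S100a10* in CPM, was at 81.1, 96.7 and 70.2 CPM in WT and 76.3, 73.7 and 87.7 CPM in *Themis*-KO livers (log2 fold change −0.06, 95% interval −0.36 to 0.24, edgeR adjusted p = 0.775). *S100a13*, which takes part in the release of FGF1, was at 11.7, 16.3 and 13.3 CPM against 13.6, 12.99 and 13.7 CPM (log2 fold change −0.035, 95% interval −0.35 to 0.28, edgeR adjusted p = 0.879). The groups overlapped for both genes, and both intervals spanned 0. *S100a16*, a widely expressed member, was at 11.8, 13.6 and 12.2 CPM in WT and 13.6, 14.8 and 15.0 CPM in *Themis*-KO livers (log2 fold change 0.21, 95% interval −0.04 to 0.45, edgeR adjusted p = 0.225). Its groups touched without overlapping. Scaled by library totals alone, which moved the median of all genes to 0.15, the signs of *S100a1* and *S100a13* turned (0.079 and 0.10).

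**Figure D2:**
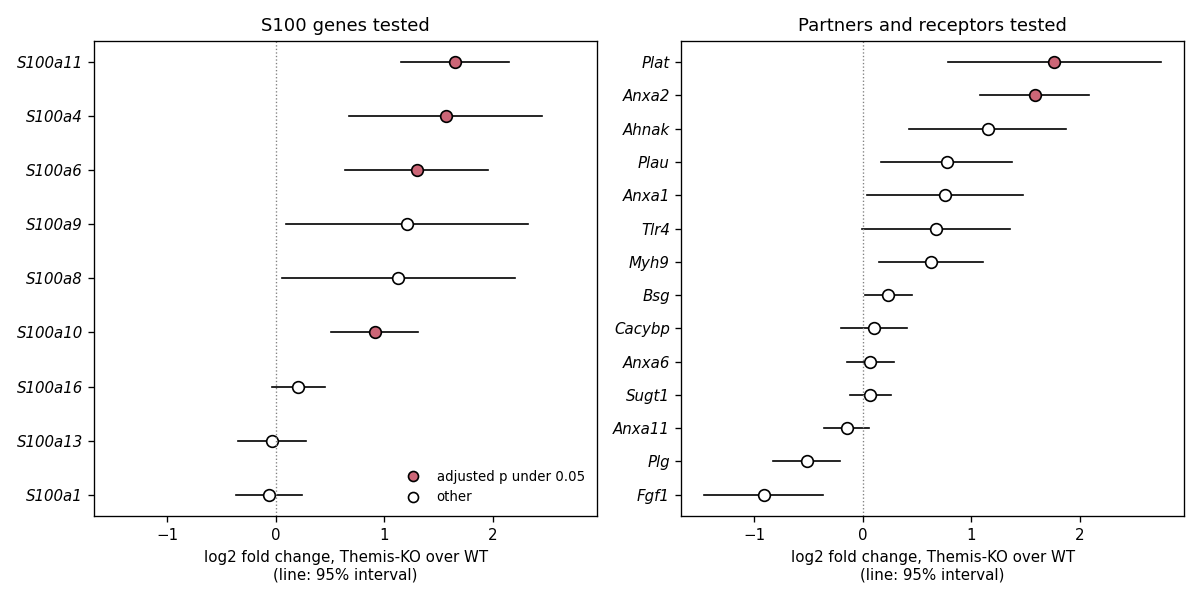
Log2 fold changes (*Themis*-KO over WT, horizontal axis) of the 9 S100 genes tested, left, and of 14 partners and receptors, right, as points with 95% intervals. Filled points passed the edgeR test, 4 on the left and 2 on the right (*Anxa2* and *Plat*), all above 0.

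The shares of the members in their summed CPM, which are not corrected for gene length, shifted with the label. The 10 genes summed to 252, 281 and 294 CPM in WT and 476, 480 and 375 CPM in *Themis*-KO livers. *S100a11* took 4.42% to 7.08% of that sum in WT and 10.9% to 11.8% in *Themis*-KO livers, and *S100a1* took 23.9% to 34.4% and 15.3% to 23.3%. Neither pair of ranges overlapped, although the CPM of *S100a1* itself overlapped between the groups (log2 fold change −0.06). *S100a10* took 47.8% to 58.1% and 55.6% to 64.4%, ranges that overlapped.

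Per kilobase of exon, *S100a10* and *S100a1* were level in WT, at means of 120 and 119 CPM per kb with overlapping ranges. *S100a11* (31.5) and *S100a13* (19.3) followed, also overlapping, then *S100a16* (7.75) and *S100a9* (3.50), each apart from its neighbours in the order. *S100a6* (1.43), *S100a4* (1.23) and *S100a8* (0.723) overlapped in turn at the low end, above *S100a14*. In *Themis*-KO livers *S100a10* stood alone at 226 CPM per kb, and *S100a1* (114) and *S100a11* (99.0) overlapped below it. *S100a13* was at 18.8 and *S100a16* at 8.95 CPM per kb, and the ranges of *S100a16*, *S100a9* (8.18), *S100a4* (3.70) and *S100a6* (3.53) overlapped from each to the next. *S100a8*, at 1.60, lay apart below *S100a6*. These levels, unlike CPM, take annotated exon length into account. The lengths of the transcripts present were not measured, so the order between genes is approximate.

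*Anxa2*, encoding the partner of S100A10, was at 56.1, 70.3 and 82.7 CPM in WT and 237, 243 and 148 CPM in *Themis*-KO livers (log2 fold change 1.58, edgeR adjusted p = 0.0131). Its order over the livers resembled that of *S100a10*, with *Themis*-KO replicate 3 between the groups. *S100a10* stood at 2.35, 1.91 and 2.06 times the *Anxa2* CPM in WT livers and 1.28, 1.27 and 1.41 times in *Themis*-KO livers, so the ratio was lower in each *Themis*-KO liver than in any WT liver. The mean log2 ratio was 1.07 ± 0.15 in WT and 0.40 ± 0.084 in *Themis*-KO livers (SD, n = 3 each), a difference of −0.67 (two-sided p = 0.1 by exact permutation, adjusted 0.2). No p below 0.1 is possible for 3 livers against 3.

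**Figure D3:**
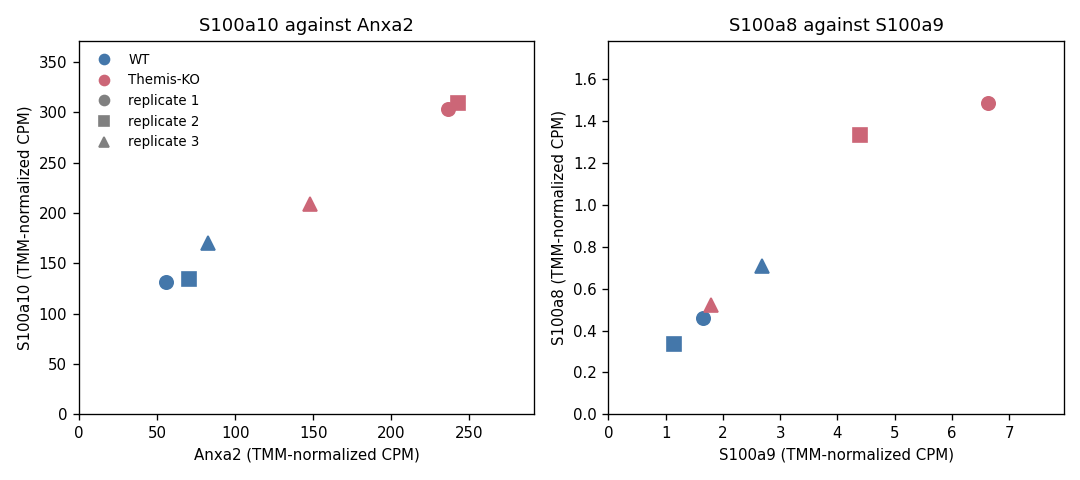
*S100a10* against *Anxa2* (left) and *S100a8* against *S100a9* (right), in TMM-normalized CPM on linear axes from 0, with 1 point per liver, WT in blue and *Themis*-KO in red. The *S100a10* to *Anxa2* ratio is 1.91 to 2.35 in WT and 1.27 to 1.41 in *Themis*-KO livers, and *Themis*-KO replicate 3 lies among the WT livers in the right panel.

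Of 15 partners and receptors of S100 proteins, 14 were tested and 2 were higher and 0 lower in edgeR, beside 4.97% and 4.14% of all genes tested. Their median log2 fold change was 0.43. At an unadjusted p under 0.05 in edgeR there were 9, in either direction, where 16.8% of all genes were higher alone. DESeq2 called 4 higher and 2 lower, beside 8.02% of all genes higher and 1072 genes lower. Besides *Anxa2*, *Plat*, the tissue plasminogen activator, was higher (1.77, edgeR adjusted p = 0.0432), at 0.912 to 2.84 CPM in WT and 3.68 to 8.33 CPM in *Themis*-KO livers. *Ahnak*, a scaffold of the annexin A2 and S100A10 complex, was at 26.7 to 30.5 CPM in WT and 85.4, 75.5 and 32.4 CPM in *Themis*-KO livers (1.15, edgeR adjusted p = 0.0578). *Plg*, plasminogen, had a fold change of −0.52 (0.0516) and *Plau*, urokinase, one of 0.77 (0.0940), on the log2 scale with edgeR adjusted p in brackets. *Myh9*, a non-muscle myosin bound by S100A4, was at 0.63 (0.0913), and *Anxa1*, the partner of S100A11, at 0.76 (0.146). *Fgf1*, whose export involves S100A13, was at −0.91 (0.0523) and *Tlr4*, a receptor for calprotectin, at 0.68 (0.165). None of these 7 genes passed in edgeR, whereas DESeq2 called *Ahnak* (adjusted p = 0.00147) and *Myh9* (0.0234) higher and *Plg* (0.00326) and *Fgf1* (0.00141) lower. *Ager*, encoding RAGE, was too low to test.

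Other S100 family genes were scarce. *S100g*, encoding the calcium-binding protein calbindin-D9k and located outside the chromosome 3 cluster, was higher in *Themis*-KO livers, with 13, 23 and 12 counts against 2, 5 and 5 in WT (log2 fold change 1.96, edgeR adjusted p = 0.0426). *S100b* and *S100a7a* had 3 counts or fewer in every liver, and *S100pbp*, an S100-binding protein, was at 0.21 (edgeR adjusted p = 0.454). Of 19 genes that lie among or beside the members on chromosome 3, 1 could be tested, *Tchh*, with a log2 fold change of −0.34 that did not pass.

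**Figure D4:**
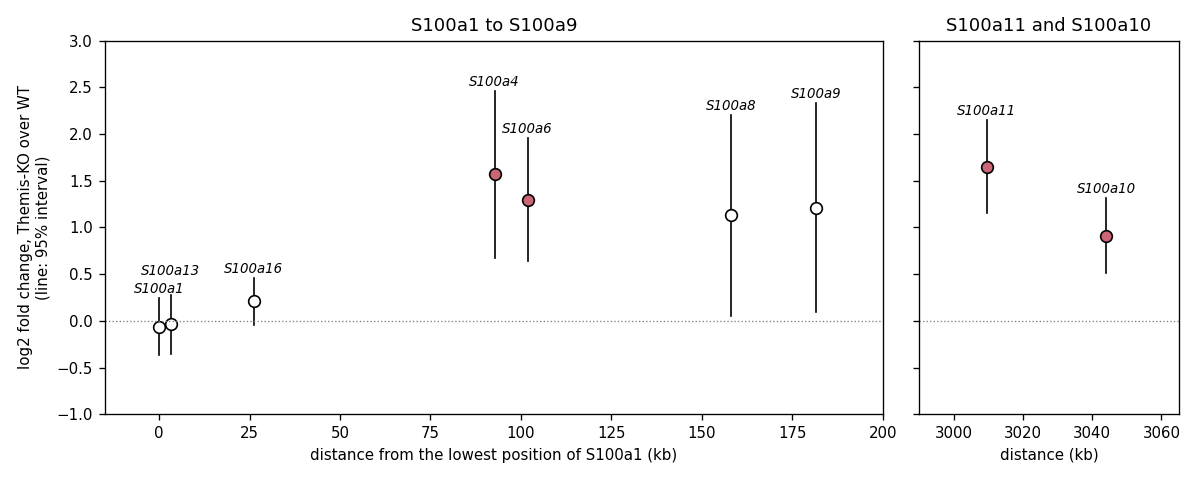
Log2 fold change (*Themis*-KO over WT, vertical axis, with 95% interval) of the 9 S100 genes tested against their distance in kb along chromosome 3 from the lowest position of *S100a1*, with the separate *S100a11* and *S100a10* pair at right. Filled points passed the edgeR test, and *S100a1*, *S100a13* and *S100a16*, at one end of the cluster, lie at −0.06, −0.035 and 0.21.

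By position, the 3 members at the *S100a1* end of the cluster had log2 fold changes of −0.06 to 0.21, and the 6 members farther along had 0.91 to 1.65. This order is a description and was not tested. The members nearest to each other in their profile over the 6 livers, by root mean square difference in centred log2 CPM, were *S100a1* and *S100a13* (0.13), *S100a13* and *S100a16* (0.149), *S100a1* and *S100a16* (0.176) and *S100a8* and *S100a9* (0.177). *S100a1* and *S100a9* were farthest apart (0.955). Among 13035 other genes, the profiles nearest to *S100a10* included those of *Cyth4* (0.049) and *Snx20* (0.057). The nearest to *S100a8* were those of *Rbpms* (0.112), *Itgam* (0.147) and *Col12a1* (0.150). The log2 fold change of *Cyth4* was 0.96 (edgeR adjusted p = 0.0306), and *Snx20*, *Rbpms*, *Itgam* and *Col12a1* did not pass in edgeR (adjusted p of 0.0562 to 0.114), whereas DESeq2 called all 4 (adjusted p of 0.00351 to 0.0438).

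Markers of several other cell types also differed between the labels. In edgeR 4.97% of all genes tested were higher and 4.14% lower. Of 11 hepatic stellate cell markers 6 were higher and their sum was 452 to 516 CPM in WT and 688 to 739 CPM in *Themis*-KO livers. Of 9 cholangiocyte markers 2 were higher (*Spp1* and *Tspan8*), with sums of 171 to 209 and 408 to 645 CPM. Of 12 macrophage markers 3 were higher (*Cd68*, *Trem2* and *Gpnmb*), with sums of 408 to 705 and 687 to 892 CPM that overlapped. The macrophage markers *Marco* and *Timd4* had negative log2 fold changes that did not pass (−1.29 and −0.63, edgeR adjusted p of 0.248 and 0.239). Of 7 monocyte markers 1 was higher (*Ccr2*, 1.14, edgeR adjusted p = 0.0345), with sums of 14.5 to 23.8 and 24.6 to 50.0 CPM. DESeq2 called 7 stellate, 3 cholangiocyte, 7 macrophage and 5 monocyte markers higher, beside 8.02% of all 15056 genes it tested. Of 12 hepatocyte markers 4 were lower in edgeR and 7 in DESeq2, with sums of 65882 to 68950 and 51121 to 57163 CPM. DESeq2 called 1072 of all genes lower. Of 7 genes of disease-associated hepatocytes 6 were higher, *Anxa2* among them, with sums of 140 to 246 and 369 to 654 CPM. In the lists of dendritic cells (6 tested) and endothelium (8 tested) 1 gene each was higher and 0 lower, of T cells (5 tested) and erythroid cells (4 tested) 0 higher and 1 lower, and of B cells (5 tested) and mesothelium (3 tested) 0 in either direction (edgeR, with 0 genes at an unadjusted p under 0.05 and 0 higher by DESeq2). The part of any of these cell types in the S100 values was not tested.

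The calls changed when single livers were left out. When *Themis*-KO replicate 1, WT replicate 2 or replicate 2 of *Themis*-KO was left out, 0 members passed the edgeR test, with 4 at an unadjusted p under 0.05 in each fit. DESeq2 was not run on 5 livers. Without WT replicate 1 only *S100a11* passed, at a log2 fold change of 1.44, and without WT replicate 3 *S100a11* and *S100a10* did, at 1.88 and 1.04. Without *Themis*-KO replicate 3, 6 members passed, the 4 and the calprotectin genes. The share of all genes called higher moved alike. It was 0.0543%, 0.183% and 15% when *Themis*-KO replicate 1, 2 or 3 was left out, and 0.0809%, 0.128% and 3.24% when WT replicate 1, 2 or 3 was left out. The log2 fold changes themselves stayed positive in each of these 6 fits, at 0.81 to 1.06 for *S100a10*, 1.44 to 1.88 for *S100a11*, 1.19 to 1.93 for *S100a4* and 1.05 to 1.53 for *S100a6*.

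**Figure D5:**
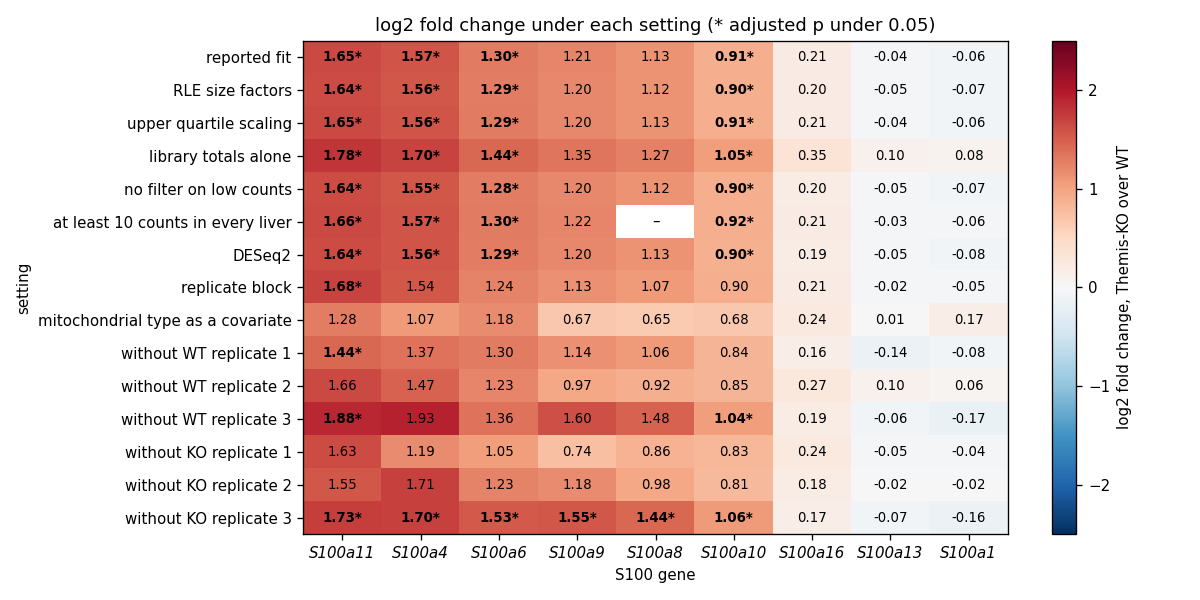
Log2 fold changes (*Themis*-KO over WT) of the 9 S100 genes tested, as columns, under the reported fit and 14 other settings, as rows, with the value printed and coloured in each cell and an asterisk where the adjusted p was under 0.05, and a dash where the filter removed the gene. *S100a11* carries the asterisk in 11 of 15 settings, and no gene carries it with the mitochondrial type as a covariate.

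With the mitochondrial type as a covariate, 0 members passed (edgeR, 0% of all genes higher, 3 members at an unadjusted p under 0.05, DESeq2 not run), and the log2 fold changes were 1.28 for *S100a11*, 1.18 for *S100a6*, 1.07 for *S100a4* and 0.68 for *S100a10*. Within the type that WT replicate 3 shares with the *Themis*-KO livers there is 1 WT liver, and the values are given without a test. There the *Themis*-KO mean was 2.43 times the WT replicate 3 level for *S100a11*, 2.26 times for *S100a6*, 2.10 times for *S100a4* and 1.61 times for *S100a10*. WT replicate 3 was the highest WT liver for these 4 genes and for *S100a8* and *S100a9*.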

How the data were processed

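Liver RNA of 3 mice labelled WT and 3 labelled *Themis*-KO was compared. The deposited values are estimated counts per gene, made by the authors from poly(A) paired-end reads mapped to GRCm38 with STAR 2.7.8a and assigned with RSEM 1.3.3, with cutadapt 2.3 named in the submitters' processing notes. They are whole numbers and were used as deposited. RSEM divides reads that fit several genes, so values of overlapping genes depend on each other. The annotation release and strand setting are not given in the sources used here.

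Counts were tested in R 4.3.3 with edgeR 4.0.16 (filterByExpr, TMM, glmQLFit, glmQLFTest, no covariates) on all 6 livers and 14496 genes, with Benjamini-Hochberg adjustment over them and a threshold of 0.05. DESeq2, the tool of the study's methods, was run as an alternative in the installed version 1.42.0, which is not the study's version, beside other scalings, filters, a fold change of at least 2, the replicate number as a block, the mitochondrial type as a covariate, one row or all rows per symbol, and each liver left out. On simulated counts with 200 changed genes, edgeR recovered 94.0% of them and 6.0% of its calls were false. The simulation gave every gene the same spread and held no mitochondrial type and no outlying liver. Its changes were larger than those of *S100a10* and *S100a6*, so these rates need not hold for the livers compared here. Each standard error is the log2 fold change divided by the square root of F. CPM were scaled by TMM with no prior count, and profiles used log2 CPM with a prior count of 2 and genes with a mean of at least 1 CPM. CPM per kb used merged exons of GENCODE vM21. Log2 ratios of CPM were compared by exact permutation. Labels do not say that the livers came from separate cages or litters, so p-values measure the spread between these livers.

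The genes named are the members, *Themis*, *Gm28438* and *mt-Nd3*, genes of the partner, neighbour and marker lists that passed or whose role bears on a member, and the 3 nearest profiles of *S100a10* and *S100a8*, of which 1 is not reported here. Members and lists were chosen with earlier results of these data known. No column of the table was left unused.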

Additional observations from a re-analysis of the deposited data

How the results depend on the processing

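The count of 4 members higher was the same under RLE and upper quartile scaling, library totals, both other filters, summed rows and DESeq2. It was 3 with a fold change of at least 2 and 0 with the mitochondrial type as a covariate, where the cause was not tested. Leaving out 1 liver gave 0 to 6. The count of members lower was 0 in every setting. For *S100a1* the log2 fold change turned to 0.079 with library totals, 0.17 with the type covariate and 0.064 without WT replicate 2, and for *S100a13* to 0.10, 0.011 and 0.099. With 1 liver left out these ran from −0.17 to 0.064 and from −0.14 to 0.099. The log2 ratio of *S100a10* to *Anxa2* stayed between −0.74 and −0.59 with 1 liver left out, and that of *S100a8* to *S100a9* ran from −0.12 to 0.094, the latter without *Themis*-KO replicate 1. With 0.5 added to each CPM the ratios differed by −0.66 and −0.29.

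The study speaks of pairs of livers without saying what makes a pair, and whether the replicate numbers of the labels mark such pairs is not known. Deviations from the group means correlated at −0.24 to 0.00028 for same-numbered livers and −0.14 to 0.28 for others, so the values gave no sign of pairing by number. With the replicate block 1 member was higher (*S100a11*, log2 fold change 1.68, edgeR adjusted p = 0.0486), 17 of all genes were higher and 45 lower, and 1 gene of the partner, neighbour and marker lists was higher and 0 lower.

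In those lists 21 genes were higher and 6 lower. DESeq2 gave 34 and 11, no filter 36 higher, a fold of at least 2 gave 3 lower, the type covariate 0 and 0, and leaving out 1 liver 0 to 40 and 0 to 12. Over all genes 721 were higher and 600 lower. DESeq2 gave 1207 and 1072, library totals 1449 and 387, no filter 1212 and 967, the type covariate 0 and 3, a fold of at least 2 gave 269 and 162, and leaving out 1 liver 8 to 2228 and 12 to 2039.

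Depth limits *S100a4*, *S100a8* and *S100g* most, since their lowest livers held 11, 7 and 2 counts, and *S100a14* could not be tested. With 3 livers per label, exact permutation cannot give a p below 0.1.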
